A study of Mus musculus with 16 samples.

Results

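The replication-dependent histone genes were taken as all protein-coding genes whose symbol begins with Hist1h, Hist2h, Hist3h or Hist4h in GENCODE vM21 (mm10), which gave 67 of 21938 protein-coding genes. By symbol, 6 encoded linker histone H1, 18 H2A, 18 H2B, 12 H3 and 13 H4. The Hist1 cluster on chromosome 13 held 54 of them, the Hist2 cluster on chromosome 3 held 10, Hist3 on chromosome 11 held 2, and Hist4 on chromosome 6 held 1. Chromatin immunoprecipitation sequencing (ChIP-seq) was performed on mouse clear cell sarcoma (CCS) tumors with antibodies to V5, RNA polymerase II (RNAPOL2) and the active chromatin mark H3K27ac, in 4 samples per antibody and 4 Input samples. Every tumor carried a human EWSR1::ATF1 fusion with a V5 tag, expressed from the Rosa26 promoter once TATCre injected into the hindlimb had removed a stop cassette, in mice of mixed 129/SvJ and C57Bl/6 background injected at 4 weeks of age. The V5 antibody therefore detected the fusion protein, and there was no group without the fusion. A single peak list per antibody was analysed, with no value per tumor, so no replicate test was possible, and no list for Input was analysed here.

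Replication-dependent histone genes supply the core and linker histones that package newly made DNA, and are transcribed mainly in S phase. They lie in clusters, lack introns in most cases, and end their mRNAs in a conserved stem-loop in place of a poly(A) tail. Many H2A and H2B genes are arranged head to head and share a short promoter with CCAAT boxes, TATA boxes and an octamer, ATTTGCAT, the binding site of the POU factor OCT1. ATF1, the source of the DNA-binding part of the fusion, belongs to the CREB family, whose full site is TGACGTCA and whose shorter site is TGACG.

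There were 10665 V5 peaks (median width 710 bp), 20375 RNAPOL2 peaks (960 bp) and 27552 H3K27ac peaks (1350 bp). Each peak carried a score of unstated scale, with medians of 230, 246 and 212 in the 3 lists, and scores are therefore set only against others of the same list, beside their rank (1 for the highest). The V5 list is shorter than the total of fusion binding sites in the study, for a reason not given in the sources used here. One figure of the study also used fewer sites than that total. V5 counts, ranks and the absence of a V5 peak therefore hold for the list analysed. A promoter peak was one that reached within 3 kb of an annotated transcription start site (TSS). Histone genes lie so close together that 57 of the 67 had the TSS of another coding gene within 3 kb, so peaks that covered the TSS base itself were counted as well.

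The highest V5 score at any histone gene belonged to a peak at chr13:23760711-23762680 (mm10), which covered the TSSs of Hist1h4a and Hist1h3a. Inside it, upstream of Hist1h4a and outside both genes, a unit of about 55 to 64 bp recurred 7 times, each time with an octamer of the CREB type or close to it. The copies are shown on the plus strand (Hist1h4a is on the minus strand), 30 bases each with the octamer in capitals, because no other V5 peak held as many. Copy 1 lies at chr13:23761265-23761294, the nearest to the Hist1h4a TSS, and copy 7 at chr13:23761614-23761643.
Copy 1: ccgccggacggTGACGTCAtaaaccccgcc
Copy 2: gggcgggaaagTGACGTCAcaaatccctcc
Copy 3: cggcgggaaaaTGACATCAcaaaccccgcc
Copy 4: cggcgggaaagCGACATCActgatccctcc
Copy 5: cggcgggaaagTGACTTCAcaaattccgcc
Copy 6: cggcgggaaagTGATGTCAcatatctcgcc
Copy 7: ggcgggaaaagTGACATCAcagacccctct
Copies 1 and 2 held TGACGTCA exactly, copies 3, 5, 6 and 7 held another octamer of the form TGANNTCA, and copy 4 held neither. The octamers began 46, 110, 165, 220, 284, 339 and 395 bp upstream of the Hist1h4a TSS.

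The shared promoters of 3 head-to-head H2A/H2B pairs are shown whole, from one annotated TSS to the other, on the plus strand of mm10 (letters from the RefSeq copy of GRCm38.p6), because they differed in both motif content and V5. The Hist1h2ag/Hist1h2bj promoter, chr13:22042945-22043213, held TGACGTCA (capitals) and lay under a V5 peak. The Hist1h2ac/Hist1h2bc promoter, chr13:23683949-23684198, held TGAGCTCA and the octamer ATTTGCAT (capitals) and lay under a V5 peak. The Hist2h2ac/Hist2h2be promoter, chr3:96220881-96221118, held ATTTGCAT (capitals) and none of the TGA motifs searched, and no V5 peak lay between its TSSs. These 3 do not stand for all 12 such pairs, since others went the other way. Hist1h2ah/Hist1h2bk held TGAGTTCA and TGACG, and Hist1h2bf/Hist1h2ad held TGACG, both with no V5 peak between the TSSs. Hist1h2ae/Hist1h2bg held ATTTGCAT and none of the TGA motifs between its TSSs, and lay under a V5 peak.
Hist1h2ag/Hist1h2bj: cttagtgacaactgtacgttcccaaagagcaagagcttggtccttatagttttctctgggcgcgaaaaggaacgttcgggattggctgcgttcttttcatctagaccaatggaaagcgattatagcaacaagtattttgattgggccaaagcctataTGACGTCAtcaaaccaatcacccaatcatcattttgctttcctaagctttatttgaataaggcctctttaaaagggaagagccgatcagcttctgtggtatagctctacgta
Hist1h2ac/Hist1h2bc: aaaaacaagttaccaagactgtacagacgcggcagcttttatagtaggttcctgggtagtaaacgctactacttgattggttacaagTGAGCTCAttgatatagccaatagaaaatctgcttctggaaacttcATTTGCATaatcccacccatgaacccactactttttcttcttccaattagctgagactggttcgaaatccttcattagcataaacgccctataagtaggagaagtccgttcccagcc
Hist2h2ac/Hist2h2be: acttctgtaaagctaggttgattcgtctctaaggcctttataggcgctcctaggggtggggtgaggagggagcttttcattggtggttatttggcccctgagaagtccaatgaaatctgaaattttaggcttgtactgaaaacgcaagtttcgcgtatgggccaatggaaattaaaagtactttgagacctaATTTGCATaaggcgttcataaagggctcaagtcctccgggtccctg

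Nearly all histone gene promoters carried RNAPOL2 and H3K27ac, and most carried the fusion as well. V5 peaks lay within 3 kb of 42 of the 67 genes (62.7%, Wilson 95% interval 50.7% to 73.3%, counting error only), against 16.6% of all protein-coding genes. RNAPOL2 peaks were present at 65 (97.0%, 89.8% to 99.2%), against 53.5%, and H3K27ac peaks at 66 (98.5%, 92.0% to 99.7%), against 58.6%. All 3 were present at 41 genes (61.2%), against 15.9% of coding genes. That excess was small when each peak was given only to its nearest coding TSS (14.9% against 12.3%) and absent in the upper 50% of each list by score (5.97% against 6.26%). These are whole tumors, so a gene active in fewer cells and a gene with less signal per cell cannot be told apart.

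Counting only peaks over the TSS base lowered the V5 count more than the others. V5 peaks covered the TSS of 27 genes (40.3%, 29.4% to 52.3%), against 13.6% of coding genes. RNAPOL2 peaks covered 63 (94.0%), against 50.9%, and H3K27ac peaks 62 (92.5%), against 55.3%. Close spacing moved with these shares: among the 4229 coding genes with another coding TSS within 3 kb, V5 was present at 27%, RNAPOL2 at 83.0%, H3K27ac at 85.6% and all 3 at 26.6%. The 57 histone genes of that kind had V5 at 40 (70.2%), RNAPOL2 at 55 (96.5%) and H3K27ac at all 57. RNAPOL2 and H3K27ac were already near their ceiling in the comparison genes, so the sizes of the gaps cannot be ranked between lists. When each peak was given only to its nearest coding TSS, V5 remained at 22 histone genes (32.8%), against 14.0% of coding genes. RNAPOL2 then fell to 40 (59.7%), against 47.0%, and H3K27ac to 39 (58.2%), against 51.7%.

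**Figure D1:**
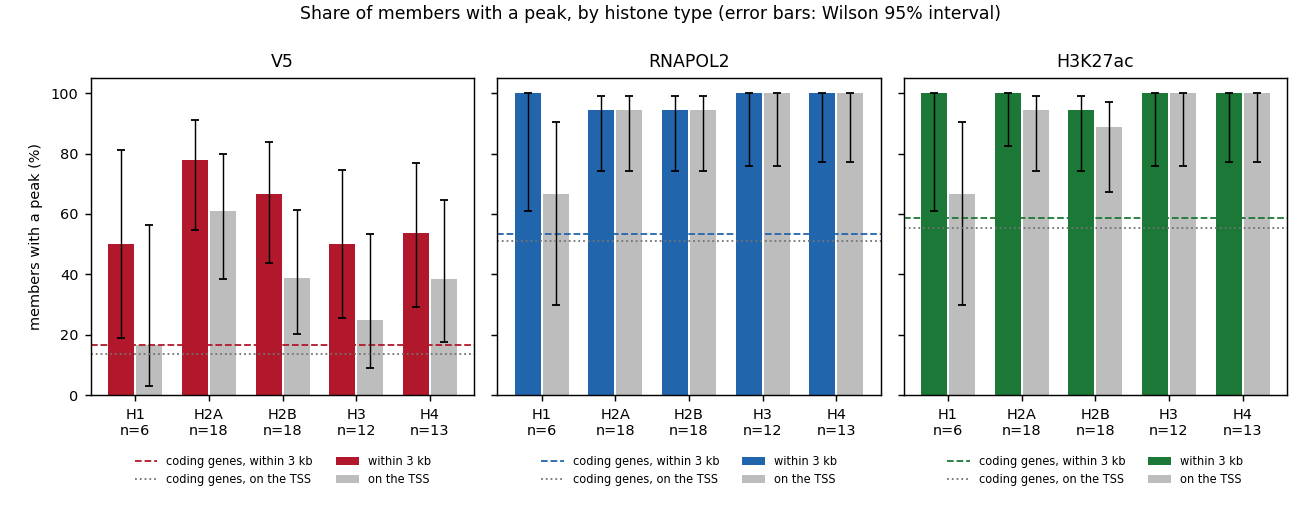
Percent of histone genes of each type with a V5, RNAPOL2 or H3K27ac peak, within 3 kb of a TSS and over the TSS base; error bars are Wilson 95% intervals (counting error only) and lines mark the share of all 21938 protein-coding genes. V5 within 3 kb ran from 50% of H1 and H3 genes to 77.8% of H2A genes, above the 16.6% of coding genes in every type, with wide and overlapping intervals.

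By histone type, V5 peaks within 3 kb were found at 3 of 6 H1 genes, 14 of 18 H2A genes, 12 of 18 H2B genes, 6 of 12 H3 genes and 7 of 13 H4 genes. Over the TSS itself the counts were 1, 11, 7, 3 and 5, so H2A genes had the highest share by either count (77.8% and 61.1%). The intervals of the types overlapped, and no test of type was made. The order of the clusters was similar by either window, with 33 of 54 Hist1 genes and 8 of 10 Hist2 genes within 3 kb of a V5 peak, and 20 and 6 with a peak over the TSS. Hist3h2a, an H2A gene, had V5 on its TSS, while its neighbor Hist3h2ba and the lone Hist4 gene, Hist4h4, had none.

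The fusion peaks at histone genes had low scores for their list, while the RNAPOL2 peaks had high ones. The median of the best V5 score per gene was 85.5 (quartiles 67 to 163, n = 42), against 196 over all coding genes with a V5 promoter peak. Counted once each, 23 V5 peaks lay at histone promoters, and 13 of them (56.5%) fell in the lowest-scored quintile of the list (score up to 103), against 31.3% of the 3595 V5 peaks at coding promoters. When that quintile was left out, V5 remained at 18 histone genes (26.9%), against 11.9% of coding genes. In the upper 50% of the list it remained at 4 (5.97%), against 7.14%, so the share at histone genes was no longer above that of coding genes. Most of the V5 peaks counted here were thus weak for their list.

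The corresponding medians for RNAPOL2 were 3387 (quartiles 1673 to 5856, n = 65) at histone genes and 912 at coding genes. Of 41 distinct RNAPOL2 peaks at histone promoters, 25 (61.0%) ranked in the top 10% of the list, against 14.4% of promoter peaks of coding genes, and they were wider (median 1840 bp against 980 bp). H3K27ac stood much closer to other genes, with a median best score of 945 against 863, and 9 of 43 distinct peaks (20.9%) in the top 10%, against 18.2%. Histone promoters thus stood highest in the RNAPOL2 list.

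**Figure D2:**
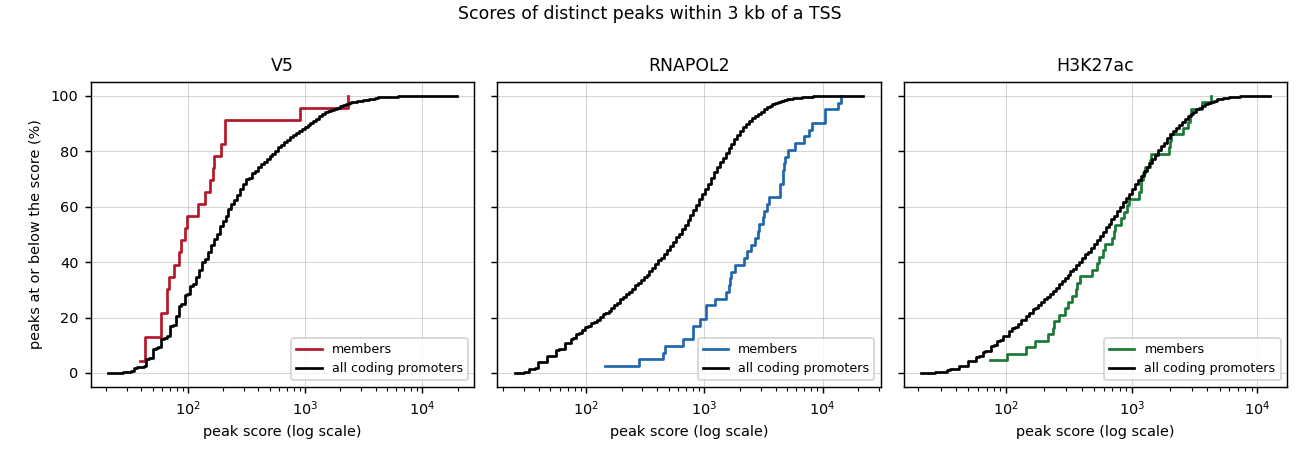
Cumulative percent of distinct promoter peaks (y axis) up to a given score (x axis, log scale) in each list, for peaks within 3 kb of a histone gene and of any protein-coding gene. The histone curve lies to the left for V5 (median 94 against 174), far to the right for RNAPOL2 (2868 against 599) and slightly to the right for H3K27ac (725 against 569.5).

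Histone genes with V5 had higher RNAPOL2 scores than those without, though neighbors often shared a peak. Where V5 was present the median of the best RNAPOL2 score was 4346 (41 genes), and where it was absent 1531 (24 genes), against 1402.5 and 760 for coding genes. Split by V5 on the TSS instead, the histone medians were 4346 (27 genes) and 2782 (38 genes), a smaller contrast. Among coding genes whose best RNAPOL2 peak was in the top 10% of its list, 52.8% had V5, against 37 of 47 histone genes (78.7%, 65.1% to 88.0%). Above the lowest V5 quintile the 2 shares were close, at 36.2% (17 of 47) and 34.5%. Between the median and the top 10% of the RNAPOL2 list the order was the other way, with V5 at 4 of 17 histone genes (23.5%), all 4 in the lowest V5 quintile, against 26.4% of coding genes. The part of RNAPOL2 level in the V5 counts was not tested. Of the 23 V5 peaks at histone promoters, 21 overlapped an RNAPOL2 peak (91.3%, against 85.5% of V5 peaks at coding promoters) and all 23 an H3K27ac peak (95.2% for coding promoters).

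**Figure D3:**
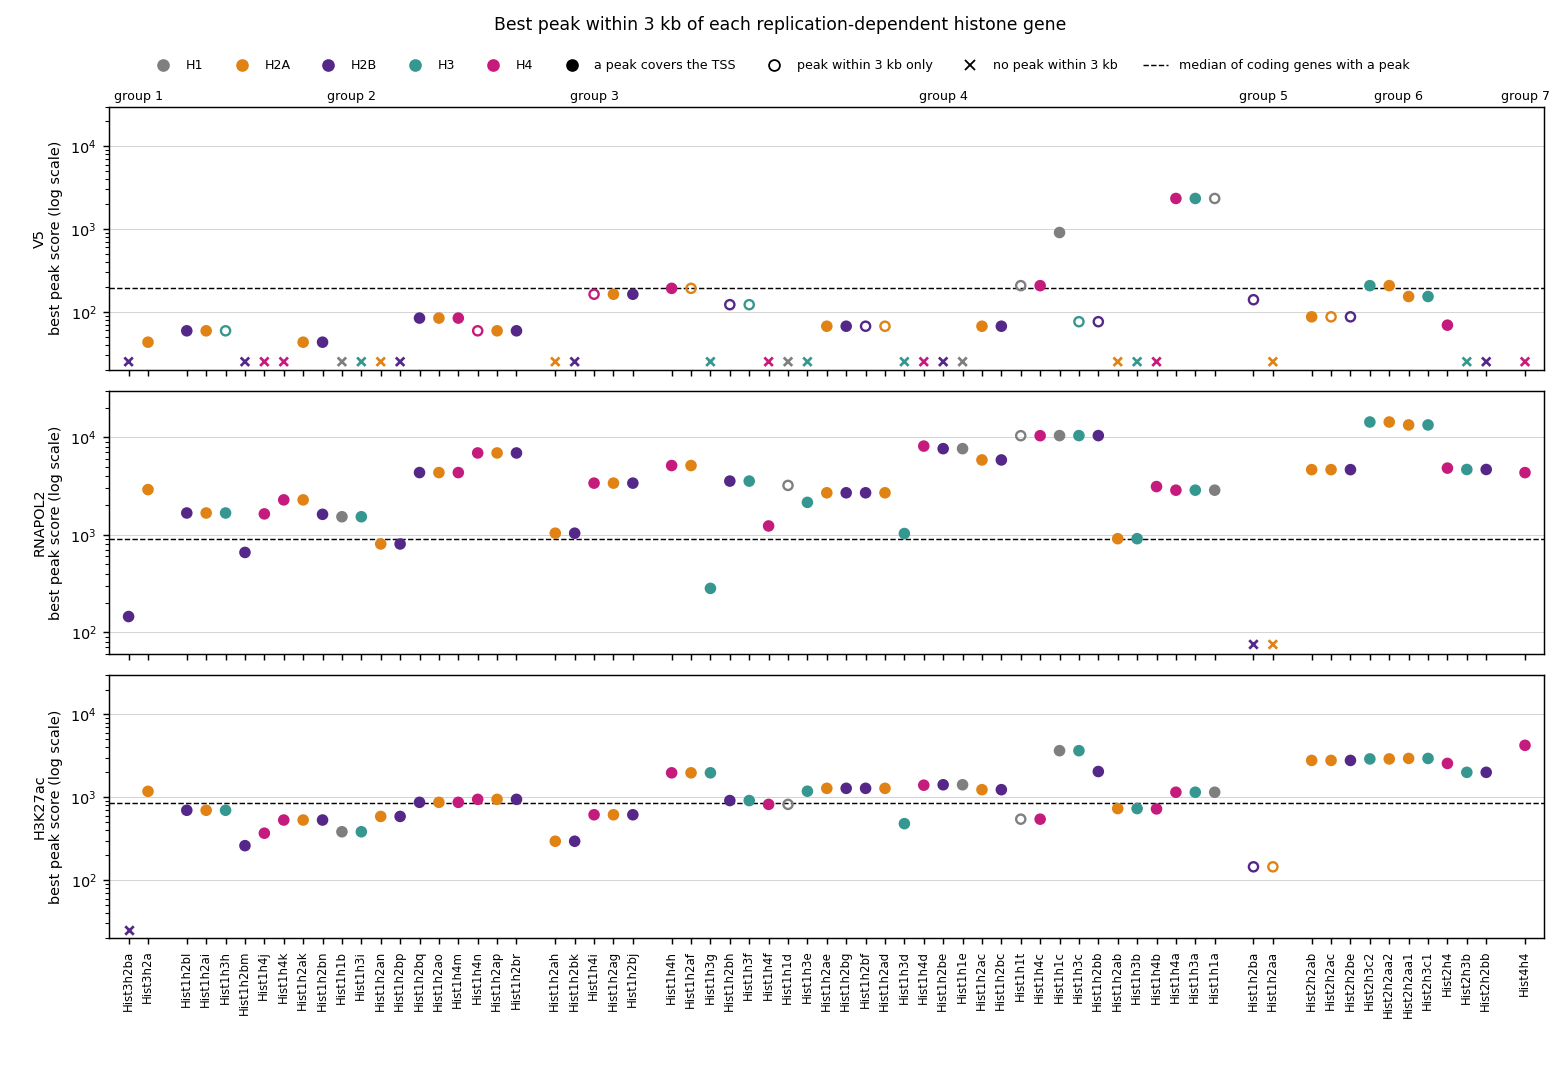
Best peak score within 3 kb (y axis, log scale) for each of the 67 histone genes in genomic order (x axis, gene groups separated), with 1 panel per list. Color gives the histone type, filled points have a peak over the TSS, open points only within 3 kb, crosses have no peak, and the dashed line is the median of coding genes with a peak. Most V5 points sit below the line at 196, most RNAPOL2 points above the line at 912.

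The clearest exception to the low V5 scores was the Hist1h4a, Hist1h3a and Hist1h1a region at one end of the longest stretch of Hist1 genes, encoding an H4, an H3 and a linker H1. The V5 peak there, shown by its repeat copies, scored 2334, rank 350 of 10665, and was 1970 bp wide. It covered the TSSs of Hist1h4a and Hist1h3a and ended 986 bp short of the Hist1h1a TSS, which had no V5 peak of its own. It was the only V5 peak at a histone gene in the top 10% of the list. Beside it, Hist1h4a and Hist1h3a shared an RNAPOL2 peak of score 2868 (rank 904), Hist1h1a had an RNAPOL2 peak of 1831 (rank 2128), and a single H3K27ac peak of 1152 (rank 4486) spanned all 3 genes. RNAPOL2 at these genes was thus not above that of other histone genes (median 3387).

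Few V5 peaks held as many octamers of this kind. It held 8 octamers of the form TGANNTCA, the 2 copies of TGACGTCA included, or 4.06 per kb, where the median V5 peak held 0 and 15 of all V5 peaks (0.141%) held as many. Width bore on this: by density, 140 V5 peaks (1.31%) held as many per kb, and of the 273 at least as wide 2 did (this one included), with 0.584 per kb over those 273 together. A 20-base probe taken from this peak after its sequence had been seen, searched with up to 5 mismatches, matched 7 times in it, at least once in 197 of the 10665 V5 peaks, and at least 2 times in 10. Only Hist1h4a among histone genes held GGCGGGAAA, of the E2F type, in the 250 bases before its TSS (1.49%, against 0.524% of coding genes). That sequence is part of the same probe, so its presence at Hist1h4a was known in advance. These are matches to letters, not measured sites.

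**Figure D4:**
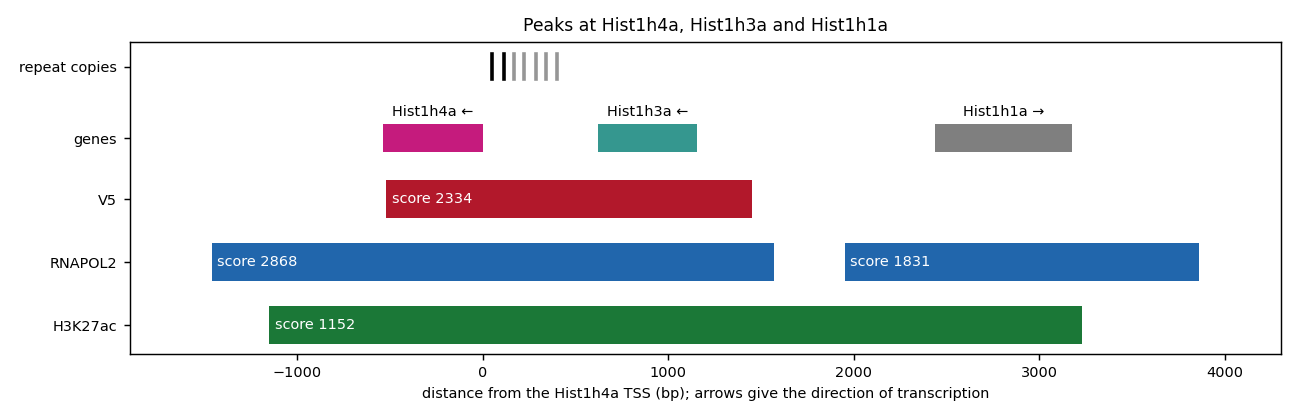
Peaks of the 3 lists and the repeat copies at Hist1h4a, Hist1h3a and Hist1h1a, by distance in bp from the Hist1h4a TSS (x axis). Copies with TGACGTCA are black and the other copies grey; the 7 octamers begin 46 to 395 bp upstream of Hist1h4a, inside the V5 peak of score 2334.

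Hist1h1c, which encodes a major somatic linker histone, had the next highest V5 score. Its V5 peak of 906 (rank 1385) lay upstream, at chr13:23735821-23737300, and a weaker peak of 94 (rank 8778) covered its TSS. The upstream peak held TGAGTCA, the AP-1 site, 30 bp from its middle. It also held TGACATCA, an octamer of the form TGANNTCA, at -276 and -725 bp from its middle, and TGACG and ATTTGCAT. Hist1h1c also had the widest RNAPOL2 peak of any histone gene, 9690 bp with score 10407 (rank 27), which ran on over Hist1h3c and Hist1h2bb, and an H3K27ac peak of 3656 (rank 531). No other H1 gene had V5 on its TSS. Hist1h1a and Hist1h1t, a testis H1, were within 3 kb of V5 peaks at neighboring genes, and Hist1h1b, Hist1h1d and Hist1h1e had no V5 promoter peak.

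The remaining genes among those with the highest V5 scores all scored 207 or less, below the list median of 230. Hist1h4c, an H4 gene, had V5 at 207 (rank 5642) on its TSS, and the same peak lay 2257 bp from Hist1h1t. Hist1h4h, another H4 gene, had V5 at 192 (rank 6062) with TGACGTCA 13 bp from the peak's middle, and the same peak lay 2276 bp from Hist1h2af. The H2A/H2B pair Hist1h2ag and Hist1h2bj shared a V5 peak of 163 (rank 6644), whose TGACGTCA lay 24 bp from its middle, 1359 bp from Hist1h4i. The 4 histone genes with TGACGTCA in the 250 bases before the TSS (Hist1h4a, Hist1h4h, Hist1h2ag and Hist1h2bj) had V5 on the TSS, by 3 peaks in all, against 59.4% of the 431 coding genes with that motif.

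V5 peaks between head-to-head H2A and H2B genes were common but weak. Of 12 such pairs with TSSs up to 1 kb apart, 7 had a V5 peak between the TSSs (58.3%), against 30.1% of all 754 head-to-head coding pairs. RNAPOL2 lay between 11 of the 12 (91.7%), against 90.2%, and H3K27ac also between 11, against 91.6%, so for those marks the histone pairs were close to other pairs. The V5 scores of the pairs were 163 for Hist1h2ag/Hist1h2bj, 67 for both Hist1h2ac/Hist1h2bc and Hist1h2ae/Hist1h2bg, 59 for Hist1h2bl/Hist1h2ai and Hist1h2ap/Hist1h2br, 43 for Hist1h2ak/Hist1h2bn and 39 for Hist1h2bq/Hist1h2ao. All but the first were in the lowest quintile of the list. The 24 genes of these pairs had V5 on the TSS in 14 cases, the 12 H2A and H2B genes outside such pairs in 4, and the 31 H1, H3 and H4 genes in 9.

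Of the 23 V5 peaks, 19 covered the TSS of a histone gene, and a few lay only beside one. A peak of 122 lay 149 bp from Hist1h3f and 809 bp from Hist1h2bh, and one of 76 lay 164 bp from Hist1h2bb and 459 bp from Hist1h3c. Hist1h4m, in a stretch of near-identical gene copies, did have V5 on its TSS, at 84. Hist1h3h and Hist1h4n lay 979 and 995 bp from V5 peaks of H2A/H2B promoters, and Hist1h2bf and Hist1h2ad lay 2426 and 2611 bp from the peak of Hist1h2ae/Hist1h2bg. The testis H2B gene Hist1h2ba was 2716 bp from a V5 peak of 140.

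The 25 genes without a V5 promoter peak lay at very different distances from the nearest one. Hist1h2aa (3022 bp), Hist1h4k (3096 bp), Hist1h4b (3698 bp), Hist1h3g (3792 bp), Hist1h3d (3993 bp) and Hist1h2ab (4556 bp) were just outside the 3 kb window. The others were 5144 bp (Hist2h3b) to 50788 bp (Hist1h1e) from one, namely the H1 genes Hist1h1b, Hist1h1d and Hist1h1e, the H2A genes Hist1h2ah and Hist1h2an, the H2B genes Hist1h2be, Hist1h2bk, Hist1h2bm, Hist1h2bp, Hist2h2bb and Hist3h2ba, the H3 genes Hist1h3b, Hist1h3e, Hist1h3i and Hist2h3b, and the H4 genes Hist1h4d, Hist1h4f, Hist1h4j and Hist4h4. Hist1h1e, a somatic linker H1 with one of the highest RNAPOL2 scores, was thus the histone gene whose TSS lay farthest from any V5 peak. High RNAPOL2 without V5 was also found at Hist1h4d (RNAPOL2 8124, rank 56, nearest V5 peak 9828 bp away) and Hist4h4.

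**Figure D5:**
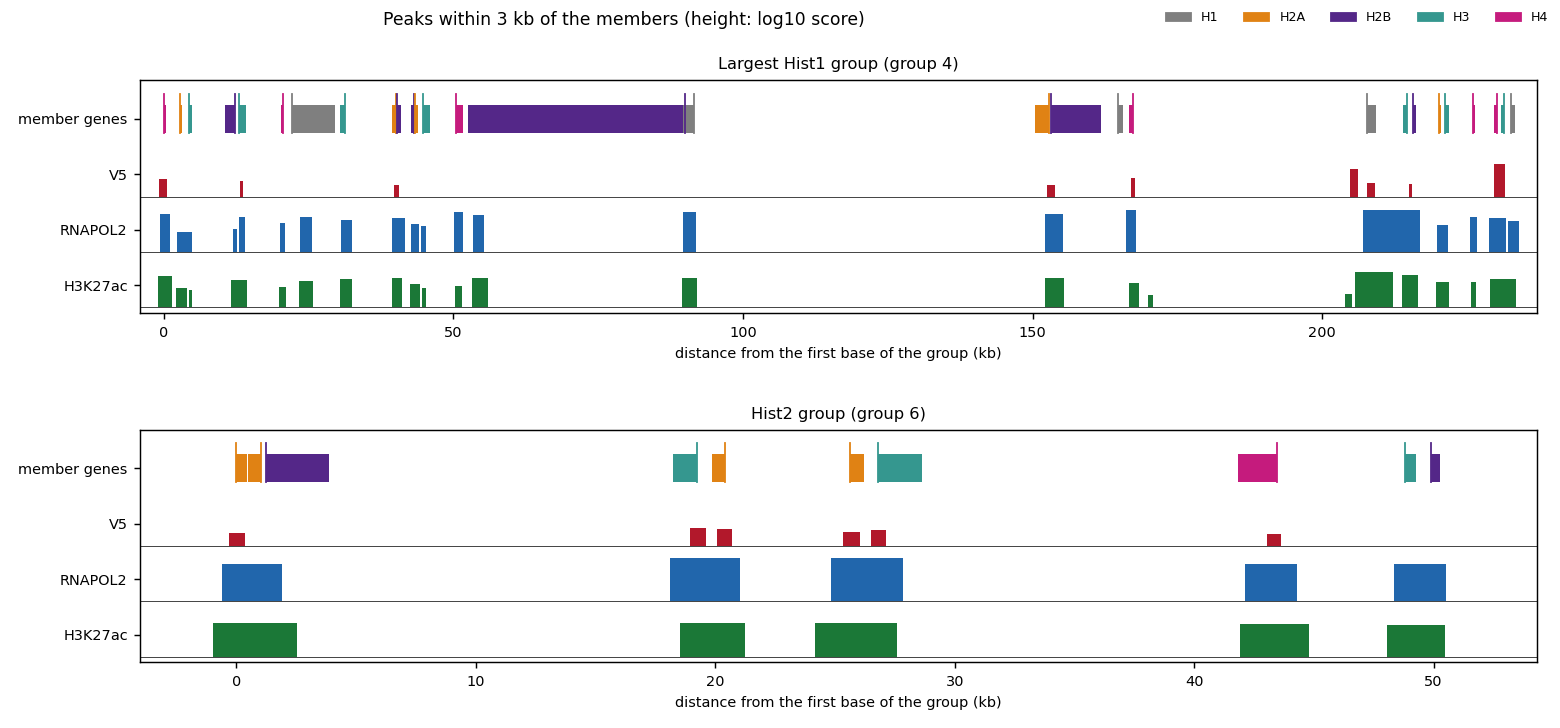
Peaks within 3 kb of histone genes across the 233 kb stretch of Hist1 from Hist1h4h to Hist1h1a (29 genes) and across the 50.3 kb Hist2 cluster (10 genes), by distance in kb from the first base of each stretch (x axis), with bar height the log10 score. RNAPOL2 and H3K27ac peaks stand at every gene of both stretches, and V5 peaks at 18 of 29 and 8 of 10, with the V5 peak of 2334 at the right end of the Hist1 stretch.

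RNAPOL2 was strongest at Hist2h3c2 and Hist2h2aa2, an H3 and an H2A gene under a single peak of 14346 (rank 12 of 20375), and at the mirrored copy Hist2h2aa1 and Hist2h3c1, at 13388 (rank 16). Next came the peak of 10407 over Hist1h1c, Hist1h3c and Hist1h2bb and that of 10383 (rank 28) at Hist1h4c. Hist1h1e and Hist1h2be were within 3 kb of a peak of 7646 (rank 65). So the top of the RNAPOL2 list held histone genes of every type.

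By type, the median of the best RNAPOL2 score was 5428.5 for H1, 3387 for both H2A and H2B, 2509 for H3 and 4342 for H4, every one above the 912 of coding genes. The lowest scores among genes with RNAPOL2 were 145 at Hist3h2ba (rank 12115), 282 at Hist1h3g and 659 at Hist1h2bm. Hist1h2ba and Hist1h2aa, the testis-specific H2B and H2A pair, were the 2 genes with no RNAPOL2 promoter peak (nearest 5975 and 5669 bp away), and their H3K27ac peak of 145 lay 1986 and 2292 bp off. Hist1h1t, the testis H1, had RNAPOL2 only 1337 bp away, at Hist1h4c. The 4 genes without RNAPOL2 on the TSS were thus Hist1h2ba, Hist1h2aa, Hist1h1t and Hist1h1d. No list of testis genes was set beforehand, so no result for testis forms as a group is drawn.

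Annotation bore on Hist1h1d and Hist1h2be. The annotated TSS of Hist1h1d, another somatic linker H1, lay 1828 bp from its start codon and had no RNAPOL2 peak, while a peak of 3211 (rank 677) covered the coding part. The outermost TSS of Hist1h2be lay 35168 bp from its start codon, and an RNAPOL2 peak of 4616 (rank 263) lay at the coding start. The other annotated distances were mostly short, with the TSS on the start codon itself in 11 genes.

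RNAPOL2 and H3K27ac peaks often covered histone genes from end to end. RNAPOL2 spanned the whole annotated gene in 40 of 67 cases (59.7%), against 1.08% of coding genes, and H3K27ac in 43 (64.2%), against 0.875%. Short gene length moved with this: among the 48 histone genes up to 1 kb long RNAPOL2 covered 38 (79.2%) and H3K27ac 40 (83.3%), and among all coding genes of that length 9.05% and 11.8%. Without the histone genes these were 27 of 670 (4.03%) and 45 of 670 (6.72%). Short coding genes outside the histone set were thus seldom covered whole. The counts took in all such genes, with or without a promoter peak, so presence and extent of peaks were not separated.

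The 3′ ends were located by the histone stem-loop, searched by its pattern within 300 bases after the stop codon. It was found in 65 of the 67 genes, all but Hist1h2an and Hist2h2be, at 22 to 59 bases past the stop codon (median 31). Across coding genes with a stop codon it was found in 0.308% (67 of 21752), the histone genes included, and the other 2 genes were H2afx and H2bfm. The forms are shown as DNA on the strand of the gene with the stem in capitals, because they divided by histone type; one example of the first is in Hist1h1e at chr13:23621782-23621797 (minus strand), and one of the third is in Hist1h4c at chr13:23698089-23698104 (minus strand).
Stem-loop of 41 genes of types H1, H2A, H2B and H3: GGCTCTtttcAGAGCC
Stem-loop of 9 genes of types H1, H2A, H2B and H3: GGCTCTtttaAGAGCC
Stem-loop of 8 H4 genes: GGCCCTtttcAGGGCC
Stem-loop of Hist1h4j and Hist1h4b: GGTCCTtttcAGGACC
All 13 H4 genes had a GGCCCT or GGTCCT stem and the other 52 genes with a stem-loop had GGCTCT. RNAPOL2 peaks covered the stem-loop in 57 of 65 genes and ended a median of 524 bp beyond it (11 to 8313 bp), H3K27ac peaks covered it in 59, and V5 peaks in 8. In the 8 others, among them Hist3h2ba, Hist1h3g and Hist1h1t, no RNAPOL2 peak covered it whole. RNAPOL2 peaks often ran on over neighboring histone genes, with 19 of the 41 covering several histone TSSs. The distance past a stem-loop therefore cannot be read as the reach past a single gene. The 8313 bp was at Hist1h1c, whose peak also covered Hist1h3c and Hist1h2bb.

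H3K27ac was present at nearly the same genes as RNAPOL2, but its scores stood less far above those of coding genes. The median best score was 846 in Hist1, below the 863 of coding genes, and 2789 in Hist2. Distinct H3K27ac peaks at histone genes were wider than at coding promoters (median 2140 bp against 1510 bp). Hist3h2ba, an H2B gene, was the one gene with no H3K27ac promoter peak (nearest 4821 bp). Hist4h4, the lone Hist4 gene, had the highest H3K27ac score of the set, 4244 (rank 325). H2afj, a replication-independent histone gene on the same chromosome, had the same H3K27ac score and rank. Hist4h4 had RNAPOL2 at 4342 (rank 311) and the nearest V5 peak 23366 bp away.

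All 10 Hist2 genes carried RNAPOL2 and H3K27ac on the TSS. V5 scored 207 at Hist2h3c2, 167 at the TSS of Hist2h2aa2, 99 at Hist2h2aa1, 153 at Hist2h3c1, 87 at Hist2h2ab and 69 at Hist2h4. The peak at Hist2h2ab, which also covered the TSS of the head-to-head gene Bola1, lay 660 bp from Hist2h2ac and 899 bp from Hist2h2be. Hist2h3b and Hist2h2bb, an H3 and an H2B gene under a single RNAPOL2 peak of 4675 (rank 255), had their nearest V5 peak 5144 and 6242 bp away. RNAPOL2 scored 4658 (rank 256) over Hist2h2ab, Hist2h2ac and Hist2h2be and 4829 (rank 234) at Hist2h4. H3K27ac peaks across the cluster scored 2003 to 2947. In Hist3, Hist3h2a, whose TSS base is also that of the coding gene Trim17, had V5 at 43 (rank 10389), RNAPOL2 at 2907 (rank 885) and H3K27ac at 1181 (rank 4403), while Hist3h2ba had RNAPOL2 at 145 alone.

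Near-identical copies limit which gene a read can be assigned to. In 13 genes more than 50% of the 50-base stretches occurred elsewhere in the genome, among them Hist2h3c2, Hist2h2aa2, Hist2h2aa1 and Hist2h3c1, which held the highest RNAPOL2 scores. How reads from such copies were placed was not given in the sources used here, so the values of these 13 are uncertain. Without them V5 was present at 30 of 54 genes (55.6%).

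Motif content of the 250 bases before the TSS differed by histone type (both strands; head-to-head genes share much of this window). For Hist1h2be and Hist1h1d the 250 bases lay before the outermost annotated TSS, away from the coding start. CCAAT was found at 54 of 67 genes (80.6%), against 36.0% of coding genes, and at every H2A and H2B gene. A TATA box (TATAAA or TATATAA) was found at 37 (55.2%), against 12.9%. ATTTGCAT was found at 15 (22.4%), 7 H2A and 8 H2B genes, against 1.45%. AAACACA, the H1 box, was found at 8 genes (11.9%), 4 of them H1 genes, against 5.66%, but in 1000 bases before the TSS the order turned (26.9% against 28.0%). All 4 are known elements of histone promoters.

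Of the CREB-type and AP-1 motifs, TGACG was the most frequent, in 29 genes (43.3%), against 19.3% of coding genes; it also occurs within TGACGTCA. It was present at 12 of 18 H2A genes (66.7%), 11 of 18 H2B, 4 of 13 H4, 2 of 12 H3 and no H1 gene. By V5, 18 of the 27 genes with a peak on the TSS held it (66.7%) and 11 of the 40 without (27.5%), against 46.9% and 14.9% of coding genes split in the same way. TGACGTCA was found at 4 (5.97%), against 1.96%, other octamers of the form TGANNTCA at 7 (10.4%), against 9.83% (in 1000 bases 26.9% against 35.8%, the other way), and TGAGTCA at none, against 4.00%. Inside the 23 V5 peaks themselves TGACG was present in all 23, against 79.7% of V5 peaks at coding promoters, but TGACGTCA in only 3 (13.0%, against 14.0%). TGACGTCA, TGAGTCA and the other TGANNTCA octamers were all missing from 18 of the 23 (78.3%), against 58.6%.

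Genes that work with the replication-dependent histones were read from lists of the pathway. Among all coding genes, V5 was at 16.6%, RNAPOL2 at 53.5% and H3K27ac at 58.6%, and the lists held 8 to 14 genes each. Of 12 replication-independent histone genes, 2 had a V5 promoter peak, a share close to that of coding genes, namely H3f3b (279), an H3.3 gene with RNAPOL2 at 14824 (rank 11), and H2afx (84), and 11 had RNAPOL2. Of 12 genes of the histone locus body and histone gene transcription, 4 had V5, namely Yy1 (2925, rank 243), Ccna2 (809), Hinfp (153), which encodes an activator of H4 genes, and E2f1 (76). Npat, which encodes the histone locus body coactivator, had RNAPOL2 at 865 and no V5, and all 12 had RNAPOL2 and H3K27ac.

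Histone mRNA processing genes numbered 14 in the annotation, and 2 had V5, Tut7 (579) and Zfp473 (113), a share no higher than the 16.6% of coding genes, while all 14 had RNAPOL2 and H3K27ac. Slbp, which encodes the stem-loop binding protein, had RNAPOL2 at 2734 and no V5. Of 8 histone chaperone genes 2 had V5, Nasp (146) and Rbbp4 (59), and 6 had RNAPOL2. Asf1b and Chaf1b, encoding chaperones used in replication, had no promoter peak in any list.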

How the data were processed

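Per the labels, ChIP-seq was performed on mouse tumors with 4 samples each for V5, RNAPOL2, H3K27ac and Input. The authors aligned reads to mm10 with BWA 0.7.10-r789, removed duplicates and called peaks over Input with MACS2 2.2.6. The labels list 4 samples per antibody, the methods name more for V5 and RNAPOL2, so how many entered each list is uncertain, and the depth reached per sample is not in the deposited lists (the methods state an approximate target only). The deposited lists give each peak's position and a score of unstated scale. From these, promoter peaks were counted within 3 kb of any TSS of GENCODE vM21 with at least 1 bp of overlap, or over the TSS base, using Python 3.11.15, pandas 2.3.3 and numpy 2.4.6. Scripts were tested on simulated peaks. Shares have Wilson 95% intervals. Motifs were searched in GRCm38.p6, whose chromosomes match mm10. Members and lists were chosen with earlier results of these data known, so no test of the list was made. Values in full were given for the 12 genes with the highest V5 scores (13 with ties), the 5 with the highest RNAPOL2 scores, those without RNAPOL2, and the Hist2, Hist3 and Hist4 genes. Alternatives were other windows, nearest TSS only, score limits, each peak once, start codons, unique genes and a motif window of 1000 bases.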

Additional observations from a re-analysis of the deposited data

How the results depend on the processing

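V5 presence at histone genes fell most when weak peaks were left out: it was 26.9% without the lowest-scored quintile (all 3 lists 25.4%) and 5.97% in the upper 50% (all 3 lists 5.97%). With a window of 500 bp, V5 and all 3 lists were each at 44.8%, and with 5 kb H3K27ac was at 100%. With each peak given to its nearest coding TSS, V5 was at 32.8%, RNAPOL2 at 59.7% (47.0% of coding genes), H3K27ac at 58.2% (51.7%) and all 3 at 14.9% (12.3%). Among genes with RNAPOL2 in the top 10% of its list, a limit chosen after seeing the data, V5 was at 78.7%. In 1000 bases before the TSS, the shares became 13.4% for TGAGTCA (15.0% of coding genes), 26.9% for other TGANNTCA (35.8%), 71.6% for TGACG (37.8%), 98.5% for CCAAT (77.4%), 76.1% for TATA boxes (48.9%) and 26.9% for AAACACA (28.0%), so 3 of these were below coding genes. Counting each peak once, leaving out genes with repeated sequence and measuring from the start codon, the last chosen after seeing the data, kept the shares and medians within their intervals or quartiles. No paired analysis was possible because each antibody has a single list with no value per tumor. Leaving out samples was not possible for that reason. Peak calls and read depth set which weak peaks are listed, and the depth behind each list is not in the files.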

Other observations

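Genes and pseudogenes other than the replication-dependent histone genes also carried peaks inside the clusters. Hfe, an iron-regulatory gene within the larger Hist1 stretch, had V5 at 494, RNAPOL2 at 187 and H3K27ac at 1486 at its promoter. The pseudogene Gm11338 had V5 at 680, higher than all but 4 histone genes. The pseudogene Hist1h2aj had RNAPOL2 at 659, and Hist3h2bb-ps lay within 3 kb of the V5 peak of 43 and the RNAPOL2 peak of 2907 at Hist3h2a.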
